A study of Homo sapiens with 6 samples.

Results

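The genes described here are 9 genes of cytosolic iron handling, chosen by name for their roles around the iron chaperone PCBP1. They are the ferritin subunits FTH1 and FTL, the ferritin cargo receptor NCOA4, the chaperone partners GLRX3, BOLA2 and BOLA2B, and the iron sensing genes FBXL5, ACO1 and IREB2. They are 9 of 62252 annotated genes summed from the deposited transcripts, and all 9 were among the 21045 genes expressed highly enough to be tested.

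Ferritin is a hollow shell built from heavy and light chains that stores iron in the cytosol, and PCBP1 and PCBP2 deliver iron to it. The heavy chain oxidizes the iron as it enters, the light chain helps the mineral core to form, and NCOA4 binds the heavy chain and carries ferritin to the lysosome, where its iron is released. GLRX3 and the BOLA2 protein form an iron-sulfur cluster complex, which PCBP1 supplies with iron. The iron regulatory proteins IRP1, encoded by ACO1, and IRP2, encoded by IREB2, bind a hairpin called the iron responsive element (IRE). Bound in the 5′ UTR, as in both ferritin mRNAs, they block translation, and bound in the 3′ UTR of the transferrin receptor mRNA they protect it from decay. FBXL5 is the iron-binding subunit of a ubiquitin ligase that removes IRP2 when iron is plentiful.

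The libraries came from K562, a human erythroid leukemia cell line. A floxed landing site was placed at the AAVS1 locus, 1 cell clone was expanded, and a cassette with Flag-tagged PCBP1 under a tet-inducible promoter was exchanged into it under puromycin selection, which gave a polyclonal line. PolyA RNA was sequenced from 3 control libraries (−Dox) and 3 libraries with PCBP1 overexpression induced by doxycycline (+Dox). Both groups carry the cassette and the puromycin resistance gene, so exposure to the drug and expression of Flag-PCBP1 changed together, and their effects cannot be told apart here. The dose and duration of Dox for these libraries are not given in the sources used here. Nothing in the labels says that the replicates were separate cultures, so p-values measure the spread between these libraries, which may be technical. By library, replicates 1, 2 and 3 of −Dox held 84177316, 80104627 and 74766040 estimated counts, and those of +Dox held 70905656, 82263502 and 82449808.

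PCBP1 itself checked the labels. It stood at 248, 270 and 267 CPM (counts scaled to library size, with TMM factors) in the −Dox libraries and at 1030, 936 and 1037 CPM in the +Dox libraries. The groups were far apart, with a log2 fold change of 1.94 ± 0.055 (standard error). Reads of the endogenous gene and of the cassette were summed in this value. The erythroid identity of the line was also visible. All 13 K562 markers examined were expressed, led by the fetal globin HBG2 at 3580 ± 248 CPM (SD, n = 3) in −Dox and 3620 ± 181 CPM in +Dox. Of 4 lymphoid markers, MS4A1 had no counts in any library and CD3E and CD2 stayed below 1 CPM, and the monocyte marker CD14 also stayed below 1 CPM.

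The sequence that both ferritin mRNAs share is their IRE, shown here because it is the element that IRP1 and IRP2 bind. The 30 bases are written 5′ to 3′ on the mRNA strand from GENCODE 44 transcripts, with the 6 bases of the hairpin loop in capitals.
FTH1: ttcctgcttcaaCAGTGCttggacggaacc
FTL: ctcttgcttcaaCAGTGTttggacggaaca
The FTH1 element lies at chr11:61967573-61967602 (GRCh38, minus strand) and the FTL element at chr19:48965335-48965364 (plus strand), both in the 5′ UTR. They shared 26 of 30 bases. The differences are T1C, C4T, C18T and C30A, with the FTH1 base first, the position counted from 1 at the 5′ end of the 30 bases, and the FTL base last. The motif searched was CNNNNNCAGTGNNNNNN, read on the transcript strand alone. The base after CAGTG was not G, and the last 5 bases had to pair with the 5 before the loop (G with T allowed). It was present in 226 of 19702 genes with a protein-coding transcript (1.15%). A match is a description of the sequence and does not show binding. For FTH1, 10 of its 12 transcripts held it, and these carried between 98.8% and 99.3% of its TPM in each library. No transcript of NCOA4, GLRX3, BOLA2, BOLA2B, FBXL5, ACO1 or IREB2 held these letters with the pairing that was required.

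Across the 9 genes, FTH1 and NCOA4 rose, GLRX3 fell, and 6 did not pass the test. A call here is an adjusted p under 0.05 by edgeR's quasi-likelihood test (two-sided, Benjamini-Hochberg over all genes tested), and 15.8% of all genes tested were called, 8.16% higher and 7.68% lower in +Dox. None of the 9 passed the limit of the study for a differentially expressed gene, an absolute log2 fold change above 1 beside that adjusted p, against 1.46% of all genes. The largest absolute log2 fold change among them was 0.44, that of BOLA2B. DESeq2 called FTL beside FTH1, NCOA4 and GLRX3, 4 of the 9, with 22.8% of all genes called by that tool. The median log2 fold change of the 9 was −0.084, against 0.0061 for all genes tested. The CPM values of the groups did not overlap for 4 of the 9, FTH1, NCOA4 and FBXL5 with +Dox above and GLRX3 with +Dox below, against 33.2% of all genes (17.4% above and 15.8% below).

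**Figure D1:**
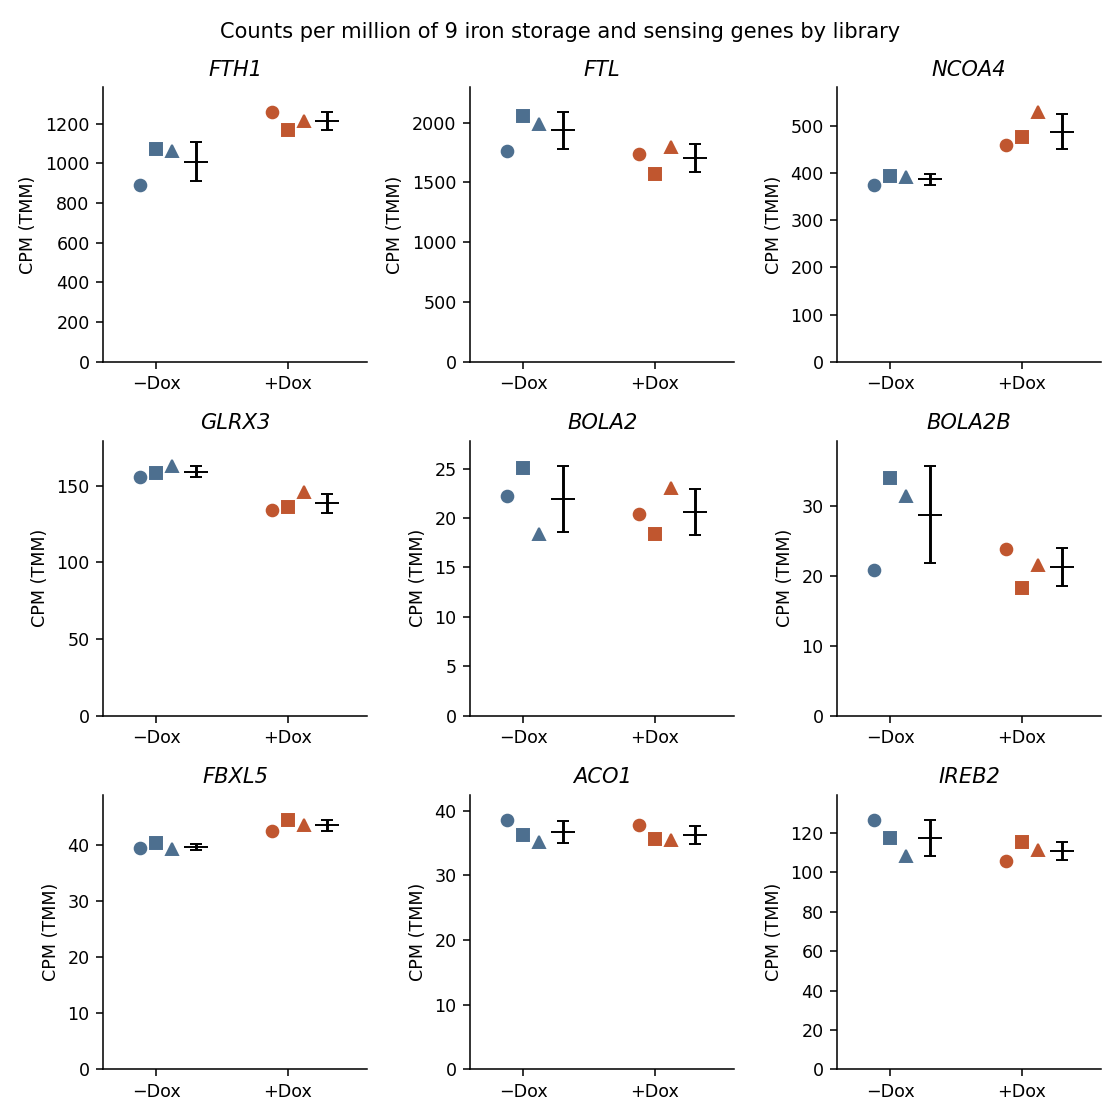
CPM of the 9 genes in each library, on linear axes that start at 0, with −Dox in blue and +Dox in orange (circle, square and triangle for replicates 1, 2 and 3) and the mean ± SD of the 3 libraries in black. The groups are apart for FTH1, NCOA4, GLRX3 and FBXL5 and overlap for the other 5.

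Per unit of length, ferritin mRNA far exceeded that of its partners. In TPM, a unit scaled for transcript length and library size, FTL was highest in −Dox at 2777 ± 111 (SD, n = 3), followed by FTH1 at 1745 ± 118. After a wide gap came BOLA2B at 209 ± 39.1, GLRX3 at 156 ± 4.04, BOLA2 at 143 ± 20.7 and NCOA4 at 112 ± 2.22 TPM. The sensing genes were lowest, with FBXL5 at 25.0 ± 0.653, IREB2 at 22.7 ± 2.44 and ACO1 at 8.65 ± 0.619 TPM. The order of GLRX3 and BOLA2, and that of FBXL5 and IREB2, was not resolved in −Dox, since the libraries of each pair overlapped. In +Dox, BOLA2B, BOLA2, NCOA4 and GLRX3 formed a chain of overlapping neighbours between 136 ± 5.55 TPM for GLRX3 and 162 ± 14.8 TPM for BOLA2B.

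FTH1 (ENSG00000167996.16, chr11:61959718-61967634, minus strand) encodes the heavy chain. It had 893, 1071 and 1063 CPM in −Dox replicates 1, 2 and 3, and 1256, 1167 and 1214 CPM in +Dox. The 2 groups did not overlap, with +Dox the higher, and −Dox replicate 1 was the lowest of all. FTH1 rose 1.20-fold (log2 fold change 0.27 ± 0.065, standard error, adjusted p = 0.0143 by edgeR). The call was lost without +Dox replicate 1 (adjusted p = 0.0619 by edgeR) and on log2 TPM with limma (adjusted p = 0.0958), a test that called 5.17% of all genes and none of the 9. Exons of BEST1 on the opposite strand cover 63.2% of the exon bases of FTH1, but the level of BEST1 was far lower, with a mean of 2.18 CPM without and 2.81 CPM with Dox. The 25 annotated FTH1 pseudogenes took at most 0.12% of the counts of FTH1 and its pseudogenes in any library, and FTH1 summed with them had the same log2 fold change of 0.27.

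FTL (ENSG00000087086.15, chr19:48965309-48966879, plus strand) encodes the light chain from 1 annotated transcript. It had 1762, 2053 and 1986 CPM in −Dox and 1737, 1574 and 1797 CPM in +Dox. The groups overlapped, because −Dox replicate 1 lay below +Dox replicate 3. The log2 fold change was −0.18 ± 0.064 (adjusted p = 0.0701 by edgeR), which did not pass. It passed without −Dox replicate 1 (adjusted p = 0.0122 by edgeR) and with DESeq2 (adjusted p = 0.0145). In TPM the libraries did not overlap, at 2656, 2802 and 2874 in −Dox against 2393, 2369 and 2501 in +Dox. The effective length that scales FTL in TPM differed between libraries, at 605, 641 and 622 bases in −Dox and 620, 603 and 607 bases in +Dox, and its part in the difference between the scales was not tested.

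Set against each other within a library, the chains gave ratios that did not overlap between the groups. The ratio of FTH1 to FTL TPM was 0.609, 0.631 and 0.643 in −Dox and 0.873, 0.877 and 0.797 in +Dox. The lowest +Dox ratio was above the highest −Dox ratio. The mean log2 ratio was 0.43 higher in +Dox, a 1.35-fold difference (p = 0.1 by a two-sided exact permutation test, which 3 libraries against 3 cannot go below, and 0.167 after adjustment over the 5 ratios examined). FTH1 made up 38.6 ± 0.658% of ferritin TPM in −Dox and 45.9 ± 1.34% in +Dox (SD, n = 3). The sum of the chains was 4522 ± 229 TPM in −Dox and 4474 ± 24.6 TPM in +Dox, and the −Dox values, from 4272 to 4722, enclosed the +Dox values. This share and this sum were chosen after the values of the genes were seen.

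**Figure D2:**
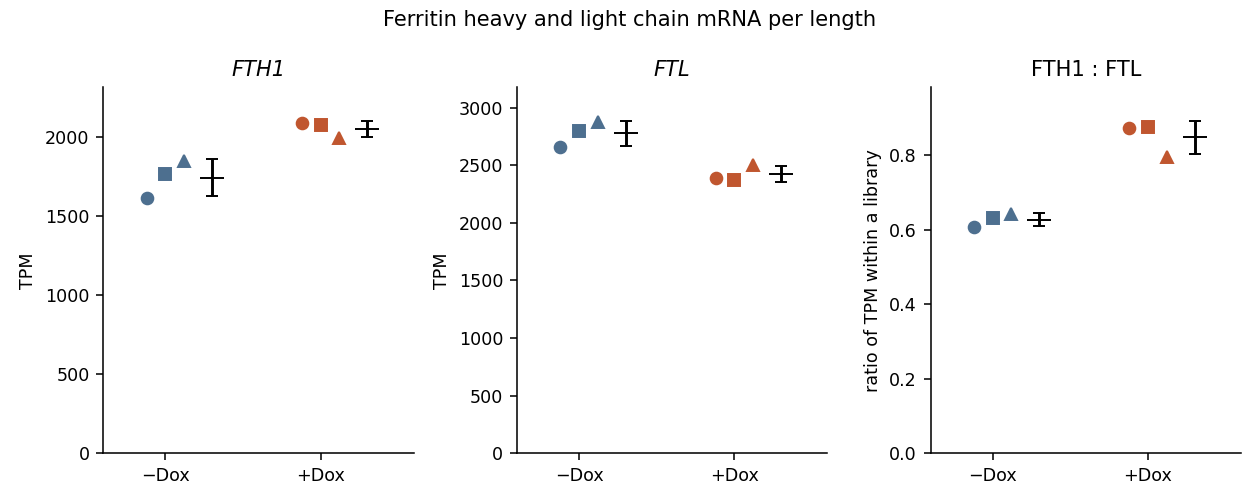
TPM of FTH1 and FTL and the ratio of FTH1 to FTL TPM in each library (axes start at 0, symbols as for the CPM plot, mean ± SD of 3 libraries in black). FTH1 is higher and FTL lower in all 3 +Dox libraries on this scale, and the ratio runs from 0.609 to 0.643 in −Dox and from 0.797 to 0.877 in +Dox.

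Of the FTH1 transcripts, 3 carried at least 5% of its TPM. FTH1-212 held 45.3 ± 1.81% in −Dox and 44.9 ± 2.65% in +Dox, FTH1-206 held 37.5 ± 0.842% and 36.7 ± 0.302%, and FTH1-201 held 14.1 ± 1.0% and 15.8 ± 2.0% (SD, n = 3). FTH1-201 and FTH1-212 share 1 coding sequence, and FTH1-206 has another, shorter one. The shares of all 3 overlapped between the groups. In TPM each of the 3 transcripts was higher in all +Dox libraries than in all −Dox libraries, from 247 ± 30.9 to 325 ± 34.3 TPM for FTH1-201, but none passed the test over all transcripts (adjusted p between 0.312 and 0.642 by edgeR). The share of all transcripts apart in this way is not given here, so this separation is a description only. The other ferritin genes had next to no counts. FTMT, the mitochondrial ferritin, had no counts, and FTHL17 had at most 3 in a library.

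NCOA4 (ENSG00000266412.6, chr10:46005088-46030623, minus strand) showed the clearest change of the 9. It had 373, 394 and 391 CPM in −Dox and 458, 475 and 528 CPM in +Dox. The groups were well apart, and +Dox replicate 3 was the highest. NCOA4 rose 1.26-fold (log2 fold change 0.34 ± 0.055, adjusted p = 0.00137 by edgeR), and it stayed called without any 1 of the libraries (highest adjusted p = 0.0080 by edgeR). On log2 TPM with limma it was just outside the threshold (log2 fold change 0.29, adjusted p = 0.0564). Ferritin TPM, FTH1 and FTL together, was 38.8, 40.9 and 41.3 times that of NCOA4 in −Dox and 35.2, 31.6 and 31.1 times in +Dox. The +Dox ratios were all lower (p = 0.1 by the same exact test, its lowest possible value, adjusted 0.167).

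NCOA4 TPM was divided between its transcripts in shares that did not overlap between the groups. NCOA4-204 and NCOA4-207 carry the same coding sequence and differ in the first exon, that of NCOA4-207 starting 7168 bases further downstream. NCOA4-207 had 21.0, 19.4 and 16.3 TPM in −Dox and 31.0, 33.5 and 37.3 TPM in +Dox. Its share of NCOA4 TPM was 19.1%, 17.3% and 14.2% in −Dox and 24.4%, 23.8% and 25.8% in +Dox. All +Dox libraries were above all −Dox libraries on both measures. The mean share went from 16.9 ± 2.49% to 24.7 ± 1.0%, while that of NCOA4-204 went from 80.4 ± 2.44% to 72.5 ± 0.387% (p = 0.1 for each by the same exact test, and 0.371 after adjustment over 26 shares). Among the 26, the shares of BOLA2-201, BOLA2-202, FBXL5-205, FBXL5-211 and the FTH1 protein-coding transcripts did not overlap either. The separation of the NCOA4 shares is therefore a description only. The log2 fold change of NCOA4-207 was 0.92 ± 0.121, with an adjusted p of 0.0746 by edgeR and 1.18e-11 by DESeq2. For NCOA4-204 it was 0.21 ± 0.070, with an adjusted p of 0.408 by edgeR.

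**Figure D3:**
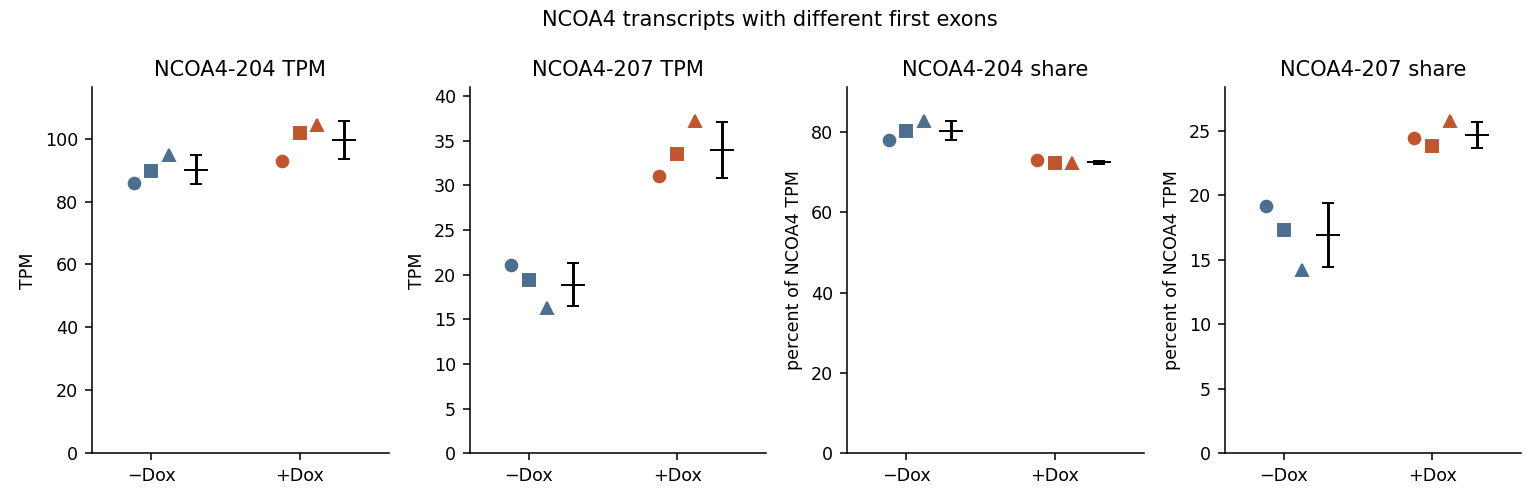
TPM of NCOA4-204 and NCOA4-207 and the percent of NCOA4 TPM on each, by library (axes start at 0, symbols as before, mean ± SD of 3 libraries in black). NCOA4-207 lies between 14.2% and 19.1% in −Dox and between 23.8% and 25.8% in +Dox, and NCOA4-204 has the opposite order.

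Over all 9 genes, 45 of 59 annotated transcripts were tested and none had an adjusted p under 0.05 by edgeR, against 0.204% of all 86178 transcripts tested. At an unadjusted p under 0.05 there were 9, against 10.0% of all. DESeq2 called 4 of the 45 (7.0% of all transcripts), with NCOA4-207, NCOA4-205 and FTH1-201 higher and GLRX3-203 lower in +Dox.

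Genes that act with NCOA4 were examined next. HERC2, which marks NCOA4 for degradation when iron is high, had a log2 fold change of −0.061. TAX1BP1, an adaptor in NCOA4 turnover, had 0.066. Of 14 tested genes for NCOA4 turnover and autophagy, none was called by edgeR, 4 had an unadjusted p under 0.05 (against 28.6% of all genes tested), DESeq2 called 1 (ATG16L1, lower in +Dox), and their median log2 fold change was −0.019. The nearest to the threshold were ATG16L1, part of the machinery that attaches LC3 to membranes (−0.20, adjusted p = 0.0507 by edgeR, and from 0.0373 to 0.0493 with RLE factors, with either other count filter and without +Dox replicate 2), and the LC3-like GABARAPL1 (0.19, adjusted p = 0.0804 by edgeR).

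GLRX3 (ENSG00000108010.12, chr10:130136391-130184521, plus strand) encodes a cytosolic monothiol glutaredoxin. It had 156, 158 and 163 CPM in −Dox and 134, 136 and 146 CPM in +Dox. All +Dox libraries were lower, with the highest of them, replicate 3, at 146 CPM against 156 CPM for the lowest −Dox library. GLRX3 fell 1.15-fold (log2 fold change −0.20 ± 0.048, adjusted p = 0.0141 by edgeR). The call was lost without −Dox replicate 3 (adjusted p = 0.0623), +Dox replicate 1 (0.0618) or +Dox replicate 2 (0.0555), all by edgeR. It was also lost when transcript length entered the edgeR fit as an offset (0.143) and in limma on log2 TPM (0.0961). The full-length GLRX3-201 carried 82.0 ± 3.51% of GLRX3 TPM in −Dox and 81.4 ± 2.82% in +Dox, and most of the rest fell on GLRX3-205, a short transcript without a coding sequence.

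BOLA2 (ENSG00000183336.9, chr16:29453590-29454351, minus strand) and BOLA2B (ENSG00000169627.9, chr16:30192932-30194306, minus strand) are copies of 1 gene. Their main transcripts have identical coding sequences of 258 bases and share a run of 372 bases, so most of their reads could be assigned to either. The shorter BOLA2-202, with another coding sequence, held 3.89 ± 0.881% of BOLA2 TPM in −Dox and 7.26 ± 1.20% in +Dox, with no overlap (p = 0.1 by the exact test, adjusted 0.371). BOLA2 had 22.3, 25.1 and 18.4 CPM in −Dox and 20.4, 18.4 and 23.0 CPM in +Dox, which overlapped (log2 fold change −0.088 ± 0.106, adjusted p = 0.652 by edgeR). BOLA2B had 20.9, 34.0 and 31.5 CPM in −Dox and 23.9, 18.3 and 21.7 CPM in +Dox. Its groups overlapped only through −Dox replicate 1 (log2 fold change −0.44 ± 0.145, adjusted p = 0.0596 by edgeR, and 4.64e-04 without that library). In that library BOLA2B took 50.4% of the TPM of the pair, against 60.5% and 66.4% in the other −Dox libraries and 51.4% to 56.4% in +Dox.

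The sum of BOLA2 and BOLA2B does not depend on how reads were split between them. It was 43.2, 59.1 and 49.9 CPM in −Dox and 44.3, 36.8 and 44.7 CPM in +Dox. The groups overlapped through −Dox replicate 1. The sum did not pass (log2 fold change −0.28 ± 0.102, with an adjusted p of 0.0891 by edgeR, and of 0.0090 without −Dox replicate 1). The readthrough gene BOLA2-SMG1P6 contains all exon bases of BOLA2 on the same strand and was more abundant in CPM, at 77.3 ± 3.32 in −Dox and 69.1 ± 2.58 in +Dox. With it included, the sum was 117, 140 and 127 CPM in −Dox and 113, 104 and 117 CPM in +Dox. All +Dox libraries were then lower, just outside the threshold (log2 fold change −0.21 ± 0.066, with an adjusted p of 0.0523 by edgeR). On the other strand, SLX1A overlaps 31.6% of the exon bases of BOLA2B, with a mean of 6.56 CPM without and 4.82 CPM with Dox. The readthrough SLX1A-SULT1A3 overlaps 30.4% of them on that strand, with a mean of 19.5 CPM without and 16.3 CPM with Dox, not far below the levels of BOLA2B. Its part in the BOLA2B counts was not tested. The ratio of the BOLA2 pair to GLRX3 in TPM was 2.26 ± 0.0799 in −Dox and 2.23 ± 0.115 in +Dox, and the groups overlapped (exact permutation test, two-sided, p = 0.6, adjusted 0.6).

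**Figure D4:**
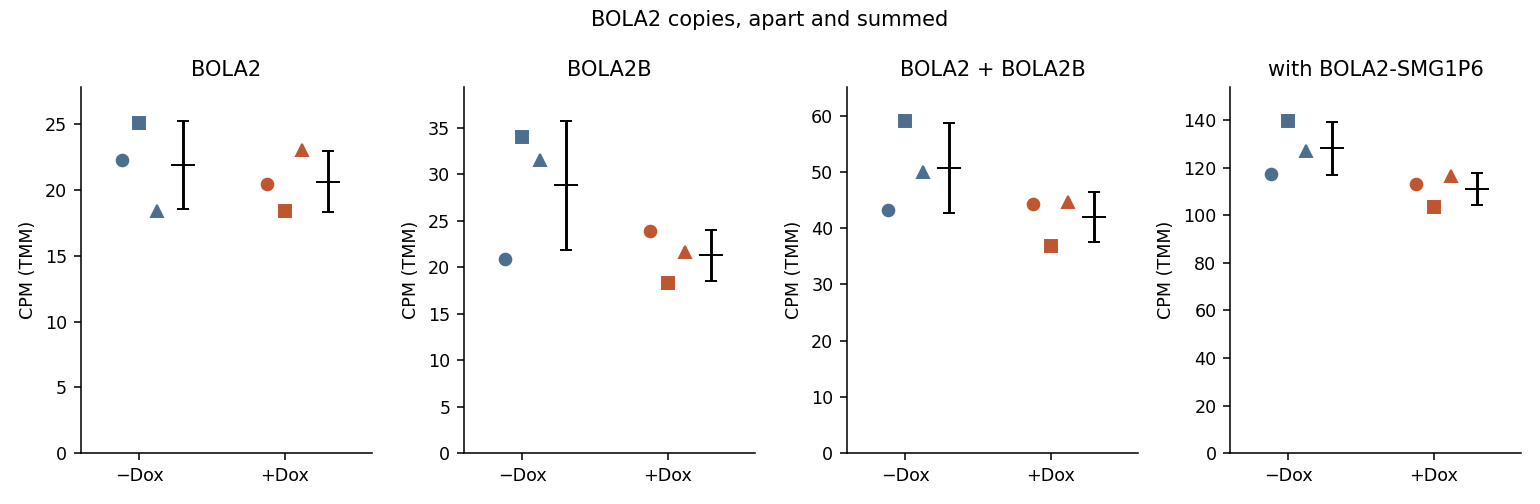
CPM of BOLA2, of BOLA2B, of their sum and of the sum with BOLA2-SMG1P6 in each library (axes start at 0, symbols as before, mean ± SD of 3 libraries in black). Of the −Dox libraries, replicate 1 (circle) is the lowest for BOLA2B and for both sums, and the groups overlap in every panel but the last.

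Among relatives and clients of GLRX3 and BOLA2, none of 6 tested genes was called by edgeR or DESeq2, 4 had an unadjusted p under 0.05 by edgeR (28.6% of all genes did), and limma on log2 TPM called 1, GLRX. This cytosolic dithiol glutaredoxin was low but higher in all +Dox libraries, with a mean of 6.18 CPM without and 7.17 CPM with Dox (0.21 on the log2 scale, adjusted p = 0.151 by edgeR). Differences in the other direction, also not called by edgeR, included CIAPIN1, which receives clusters from the complex (log2 fold change −0.11, adjusted p = 0.168), its reductase NDOR1 (−0.16, adjusted p = 0.134, but −0.0225 with a transcript length offset and −0.0885 without +Dox replicate 3) and the mitochondrial BOLA3 (−0.083, adjusted p = 0.547). BOLA1 was too low to test, with 10 counts or fewer in each library. None of the 7 genes of cytosolic iron-sulfur assembly was called by edgeR or DESeq2 either, and 2 had an unadjusted p under 0.05 by edgeR, again against 28.6% of all genes. Of these 7, 5 had a lower mean in +Dox. The scaffold NUBP1 (−0.14, adjusted p = 0.166 by edgeR) and MMS19 (−0.14, adjusted p = 0.110) had the largest differences, nearly equal in size.

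FBXL5 (ENSG00000118564.15, chr4:15604381-15681679, minus strand) had 39.6, 40.4 and 39.3 CPM in −Dox and 42.5, 44.5 and 43.6 CPM in +Dox. All +Dox libraries were above all −Dox libraries by a narrow margin, but the gene did not pass the test (log2 fold change 0.13 ± 0.050, adjusted p = 0.0990 by edgeR). In TPM the groups overlapped. Of FBXL5 TPM, 43.7 ± 4.10% in −Dox and 50.2 ± 4.31% in +Dox fell on FBXL5-212, a transcript of 592 bases with no annotated coding sequence that shares no exon base with the full-length FBXL5-201. Protein-coding transcripts held 41.7 ± 5.37% in −Dox and 37.3 ± 3.86% in +Dox, with overlap. The assignment between them was unstable, since FBXL5-211 was listed at 0 in +Dox replicates 1 and 2 and held 8.05% of FBXL5 TPM in +Dox replicate 3.

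Among the partners of FBXL5 in the ubiquitin ligase, the adaptor SKP1 rose (log2 fold change 0.17, adjusted p = 0.0310 by edgeR), the scaffold CUL1 fell (−0.15, adjusted p = 0.0264) and the RING subunit RBX1 was not called (0.037, adjusted p = 0.742). Both calls were fragile. With 1 library left out at a time, the adjusted p by edgeR reached 0.111 for SKP1 without +Dox replicate 3 and 0.0855 for CUL1 without +Dox replicate 1, and each kept its call in 1 of the 6 cases.

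The iron regulatory proteins showed no difference larger than the spread between libraries. ACO1 (ENSG00000122729.19, chr9:32384603-32454769, plus strand) had 38.6, 36.3 and 35.2 CPM in −Dox and 37.9, 35.6 and 35.4 CPM in +Dox. IREB2 (ENSG00000136381.13, chr15:78437431-78501453, plus strand) had 127, 118 and 108 CPM in −Dox and 106, 115 and 111 CPM in +Dox. Both overlapped between the groups, with log2 fold changes of −0.017 ± 0.057 for ACO1 and −0.084 ± 0.060 for IREB2 (adjusted p = 0.894 and 0.402 by edgeR). Per length, the ratio of ACO1 to IREB2 was 0.382 ± 0.0159 in −Dox and 0.424 ± 0.0512 in +Dox (exact permutation test, two-sided, p = 0.4, adjusted 0.5). ACO1-202 held most of ACO1 TPM, at 79.1 ± 12.5% in −Dox and 79.4 ± 14.4% in +Dox, with ACO1-203 listed at 0 in −Dox replicate 1 and in +Dox replicates 1 and 2. IREB2-201 held 78.0 ± 3.44% and 83.0 ± 5.45% of IREB2 TPM.

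The mRNAs known or reported to carry an IRE, other than ferritin, moved in both directions. Of 8 tested, 2 rose and 3 fell, against 8.16% and 7.68% of all genes. The elements below are shown to set those of the transporter and receptor mRNAs beside the ferritin pair, with the loop in capitals.
TFRC, the first of 4 elements found in its 3′ UTR: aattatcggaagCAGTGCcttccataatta
SLC40A1, in the 5′ UTR: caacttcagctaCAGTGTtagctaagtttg
The TFRC element is at chr3:196050978-196051007 (minus strand) and that of SLC40A1 at chr2:189580660-189580689 (minus strand). The search also found 1 match in the 5′ UTR of ALAS2 and 1 in the 3′ UTR of CDC14A. No match was found in SLC11A2, EPAS1 or CDC42BPA. This says only that their annotated transcripts do not hold these letters with the pairing required. An element with a different stem would be missed.

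TFRC, the transferrin receptor that brings iron into the cell, had 923, 908 and 896 CPM in −Dox and 666, 724 and 763 CPM in +Dox. It fell 1.27-fold, with no overlap (log2 fold change −0.34 ± 0.052, with an adjusted p of 8.56e-04 by edgeR). Ferritin TPM was 22.2, 24.9 and 25.5 times that of TFRC in −Dox and 33.6, 28.6 and 30.4 times in +Dox, and the groups did not overlap (p = 0.1 by the same exact test, its lowest possible value, adjusted 0.167). SLC40A1, the iron exporter ferroportin, fell slightly (−0.16, adjusted p = 0.0491 by edgeR), a call lost when any 1 library was left out (adjusted p from 0.0660 to 0.178). CDC42BPA, a kinase, fell (−0.26, adjusted p = 0.00394 by edgeR).

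The IRE-linked genes that rose were SLC11A2, the iron importer DMT1, from 67.3 ± 1.77 to 80.5 ± 2.15 CPM (log2 fold change 0.26, adjusted p = 0.00318 by edgeR), and ALAS2, the erythroid enzyme that starts heme synthesis, from 30.4 ± 1.43 to 87.8 ± 6.08 CPM (1.53, adjusted p = 2.50e-08). EPAS1 and CDC14A were not called (adjusted p = 0.948 and 0.470 by edgeR). Of all 9 genes and the lists around them, PCBP1 and ALAS2 alone passed the limit of an absolute log2 fold change above 1.

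Of the other PCBP genes, PCBP2 rose slightly, from 246 ± 7.78 to 275 ± 1.81 CPM (log2 fold change 0.16, adjusted p = 0.0244 by edgeR), and the call was lost when any 1 library was left out (adjusted p from 0.0513 to 0.0704). PCBP4 was low, with means of 3.93 ± 0.437 CPM without and 4.86 ± 0.780 CPM with Dox (adjusted p = 0.185 by edgeR), and PCBP3 was too low to test, with 7 counts or fewer in each library. Among 5 other enzymes that receive iron through PCBP1, 1 fell, against 7.68% of all genes. This was the oxygen-sensing hydroxylase EGLN3, with 11.3, 14.2 and 15.5 CPM in −Dox and 8.37, 8.90 and 11.5 CPM in +Dox. The log2 fold change was −0.51 ± 0.130, at an adjusted p of 0.0171 by edgeR. Its groups overlapped by a narrow margin, and its call was lost without −Dox replicate 3 (adjusted p = 0.0848), +Dox replicate 1 (0.0793) or +Dox replicate 2 (0.0648), all by edgeR.

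Of 5 genes of endosomal and lysosomal iron transport, 2 rose and 1 fell (8.16% and 7.68% of all genes did), and those 3 had no overlap between the groups (17.4% of all genes had +Dox above and 15.8% below). The metal importer SLC39A8 went from 59.6 ± 2.39 to 84.3 ± 2.73 CPM (log2 fold change 0.50, adjusted p = 4.23e-05 by edgeR). Its relative SLC39A14 went the other way, from 53.8 ± 2.07 to 38.5 ± 1.40 CPM (−0.48, adjusted p = 8.83e-05 by edgeR). TFR2, the second transferrin receptor, rose from 81.1 ± 2.58 to 105.5 ± 3.98 CPM (0.38, adjusted p = 2.74e-04 by edgeR), and had a smaller difference with a transcript length offset (0.25, adjusted p = 0.0270) and in limma on log2 TPM (0.21, adjusted p = 0.175). The ferrireductase STEAP3 and the lysosomal channel MCOLN1 were not called (−0.14 and 0.013, adjusted p = 0.185 and 0.957 by edgeR).

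**Figure D5:**
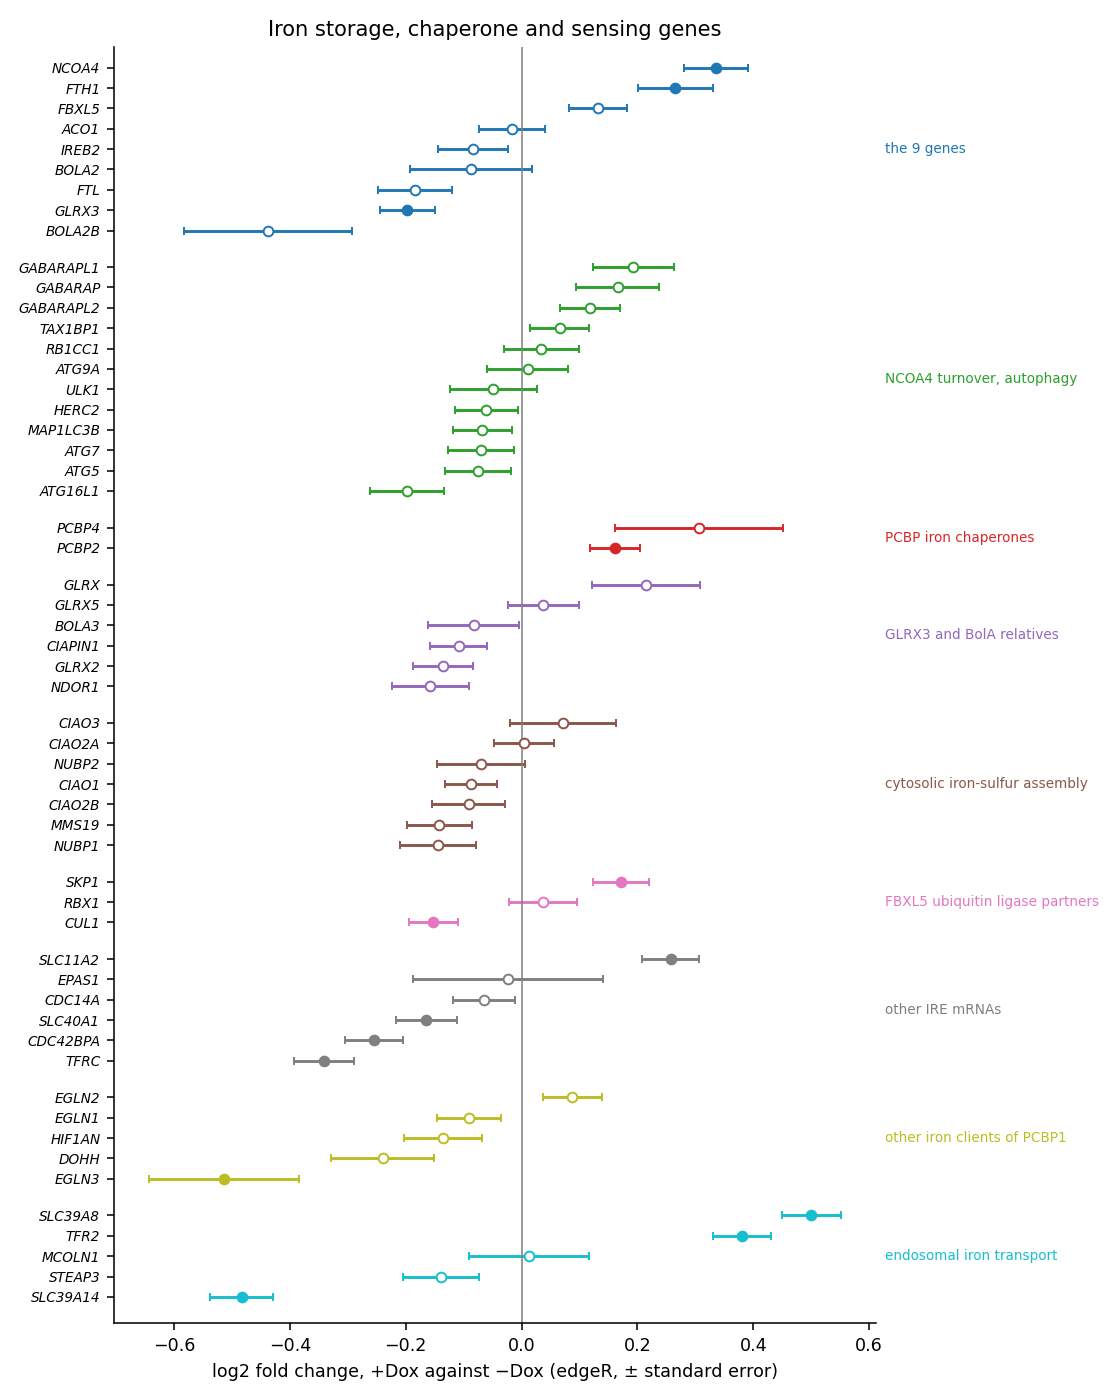
Log2 fold changes of the 9 genes and of the lists around them (horizontal axis, +Dox against −Dox, edgeR, bars are standard errors), with filled points for an adjusted p under 0.05 and open points for the rest. PCBP1 and ALAS2, which lie beyond the axis, and MAP1LC3A and MAP1LC3B2, which had few counts, were left off, as was 1 other gene not called. NCOA4 and FTH1 are the highest of the 9, at 0.34 and 0.27, and GLRX3, at −0.20, is the only filled point of the 9 below 0.

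Over these 8 lists with tested genes beyond the 9, 7 of 51 genes rose (13.7%, against 8.16% of all genes tested) and 6 fell (11.8%, against 7.68%). The 7 include PCBP1, the induced gene itself, whose rise was set by the design. The median log2 fold change of the 51 was −0.061. Of these 13 calls, PCBP1 included, limma on log2 TPM kept 6 and lost those of PCBP2, SKP1, CUL1, SLC40A1, SLC11A2, CDC42BPA and TFR2.

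Erythroid genes moved beside these values. Of the 13 K562 markers, 3 rose by edgeR (8.16% of all genes did), among them the transcription factors TAL1 (log2 fold change 0.44) and KLF1 (0.46). Another 3 fell (7.68% of all genes did), LMO2 (−0.20), the embryonic globin HBZ (−0.40) and TFRC, and 7 did not pass. The call of LMO2 held in 2 of 6 cases with 1 library left out, with an adjusted p up to 0.0996 by edgeR, without −Dox replicate 2. The summed level of the 13, with HBG2 the most abundant, was 8955, 10113 and 9133 CPM in −Dox and 9425, 8682 and 9110 CPM in +Dox, with overlap. The monocyte markers CD14 and LYZ summed to 119, 144 and 169 CPM in −Dox and 98.4, 98.0 and 116 CPM in +Dox, nearly all of it LYZ, which fell (−0.47, adjusted p = 0.00837 by edgeR). In limma on log2 TPM the calls of LYZ (adjusted p = 0.0874) and TAL1 (0.0794) were lost. In bulk RNA, fewer cells of a state and less RNA per cell cannot be told apart, and the part of these shifts in the values of the 9 genes was not tested.

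The genes whose CPM ran most closely with each of FTH1, FTL and NCOA4 over the 6 libraries were picked from 9289 genes with a mean of at least 10 CPM, by Pearson's r of log2 CPM, as a description. For FTH1 they were RTL8C (r = 0.994), THOC7 (0.992) and HMGN3 (0.991). For FTL they were SF3B5 (0.997), EMC6 (0.997) and PRR13 (0.994), and for NCOA4 they were NELFCD (0.998), ERLEC1 (0.997) and CENPU (0.997). The libraries share depth and composition, and with 6 points such values say little about any single pair.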

How the data were processed

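Paired-end reads of polyA RNA were quantified by the authors with Salmon 1.10.2, and the deposited files hold, for each of 252045 transcripts and each library, estimated counts that are not scaled and TPM values that the authors' run of Salmon scaled for effective length. The Salmon index, strand and bias settings are not given in the sources used here, so reads of overlapping genes on opposite strands could not be separated. Transcripts were matched to GENCODE 44 on GRCh38 (251612 matched without regard to version, 433 did not), summed to 62252 genes and rounded. The test of +Dox against −Dox was edgeR 4.0.16 in R 4.3.3 (TMM factors, then glmQLFit and glmQLFTest) on genes whose mean count exceeded 10, with all 6 libraries and no covariate. Standard errors were obtained as the log2 fold change over the root of the F statistic. Transcripts were tested the same way, which leaves out the uncertainty of assignment between isoforms. Ratios and shares within a library used TPM and an exact permutation test. DESeq2 1.42.0, RLE factors, other count filters, a transcript length offset, merged copies, a replicate term, each library left out, estimated counts in place of TPM for shares, and limma 3.58.1 on log2(TPM + 1) were the alternatives, the last of them and the sum with BOLA2-SMG1P6 added after seeing the data. Depth gives 1374 to 159921 counts per library for each of the 9 genes. Replicates of a group differed by more than counting noise (chi-square per gene 8.16 to 17.5).

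The 9 genes, the lists and the rule for the genes named were chosen with earlier results of these data known. The rule names the 9, PCBP1, any gene of the lists, genes whose exons overlap them, copies with a mean of at least 1 CPM, the 3 genes with the closest profile to FTH1, FTL and NCOA4, and transcripts with at least 5% of the TPM of a gene. NCOA4-205, GLRX3-203 and FTH1 pseudogenes are outside it and were chosen for the text once their values were known. On simulated data from these libraries, edgeR called 83 of 100 genes changed 1.5-fold, 99 of 100 changed 3-fold and 6 unchanged genes of 21045. Over 86178 transcripts it called 1 of 100, 42 of 100 and 4 unchanged. The simulated spread followed the dispersion trend alone, with none particular to a gene. The 200 features changed in each run had a mean count above 100. All 9 genes changed less than 1.5-fold in the gene test, so these figures do not give its power for them. IRE sequences were read from GENCODE 44 transcripts. Tables and figures were made with Python 3.11.15, pandas 2.3.3, scipy 1.17.1 and matplotlib 3.10.9. Single values of some members of the lists are not reported here, though the counts over the lists include them.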

Additional observations from a re-analysis of the deposited data

How the results depend on the processing

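NCOA4 kept its call in 13 of 14 other settings, with log2 fold changes from 0.27 to 0.38, and lost it in limma on log2 TPM (0.29, adjusted p = 0.0564). That test, added after seeing the data, called 1088 genes against 3333 by edgeR (54 against 308 with an absolute log2 fold change above 1) and none of the 9, with FTH1 at 0.24 and GLRX3 at −0.195. A transcript length offset called 1882 genes and left GLRX3 at −0.16 (adjusted p = 0.143) and BOLA2 at 0.025, with its sign turned but near 0. With no filter on low counts, 515 genes passed both limits in place of 308, and FTL, alone or summed with its pseudogenes (−0.19), BOLA2B (−0.44, adjusted p = 1.00e-08) and the BOLA2 pair (−0.28) passed. A minimum of 10 counts in every library passed the same genes and sums, at −0.19, −0.44 (adjusted p = 0.0248 by edgeR) and −0.28, and DESeq2 passed FTL and its sum at −0.19. The cause of these shifts was not tested. With 1 library left out, log2 fold changes ran from 0.18 to 0.30 for FTH1 and for its sum with pseudogenes, from −0.25 to −0.13 for FTL and its sum, from −0.23 to −0.17 for GLRX3, from −0.20 to 0.015 for BOLA2, from −0.63 to −0.31 for BOLA2B, from −0.38 to −0.16 for the pair, from −0.14 to −0.028 for IREB2 and from −0.048 to 0.020 for ACO1. Not called at any setting, IREB2 was at −0.16 with the length offset and −0.19 in limma, and FBXL5 at 0.24 with the length offset. For transcripts, edgeR called 176 (74 with an absolute log2 fold change above 1), DESeq2 5876 and 1881, and edgeR without 1 library 2 to 4 by either limit, so calls of single transcripts depend on the tool and on every library. Signs also turned, with no call at any of these settings, for HERC2 (length offset 0.12, limma 0.074), EPAS1 (length offset 0.23, limma 0.13, without 1 library −0.24 to 0.12) and MCOLN1 (length offset −0.029, limma −0.0575, without 1 library −0.083 to 0.10), and without 1 library for BOLA3 (−0.15 to 0.0016) and RBX1 (−0.012 to 0.079). With the replicate number as a block (replicate block), FTH1 was at 0.27 (adjusted p = 0.0461 by edgeR), NCOA4 at an adjusted p of 0.00552 and GLRX3 at 0.0447, the calls of PCBP2 (0.105), SKP1 (0.0885), CUL1 (0.119), SLC40A1 (0.109) and LMO2 (0.0658) were lost, 2490 genes were called, and 0 transcripts passed by either limit. Equal numbers did not pair the libraries (correlations of deviations 0.0075, −0.0605 and −0.0029), and no library correlated best with its own number. Isoform shares and the split of the BOLA2 copies rest on the assignment of shared reads, and with 3 libraries a group no ratio or share could pass alone.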
